A study of Mus musculus with 4 samples.

Results

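Interleukins are the secreted signalling proteins of leukocytes and stromal cells, and here they are described together with the receptor chains that read them. The 80 genes were taken by name from the deposited count tables of 54532 genes: every protein-coding gene whose mouse symbol starts with Il and a digit, apart from Il6, Il11, Il6ra and Il6st. They carry 78 symbols, because Il11ra2 has 3 identifiers. The members comprise 39 genes for ligands and soluble antagonists and 41 for receptor chains and other proteins. Poly(A) RNA was sequenced from cells that the labels call primary breast cancer-associated fibroblasts (CAFs) of the mouse, the fibroblasts of a tumour's stroma. Whether cells positive for PDGFRa were sorted before sequencing is not stated in the labels. The cells came from Dll1 mCherry+ mammary tumours of the MMTV-PyMT model on the C57BL/6 strain. The irradiated group (2 libraries, A and B) is labelled as given targeted radiation at day 6, at 6 Gy per the series design. The unirradiated group (2 libraries, A and B) came from the same tumour model without radiation. The titles of both groups carry the mark 6D, and the labels do not say whether day 6 is the time of irradiation or of collection. The interval between irradiation and collection is therefore not known here. In this model a mammary tumour virus promoter drives the polyoma middle T oncogene in mammary epithelium, so both groups carry the transgene. The labels do not say whether A and B are separate animals, so p-values measure only how these libraries vary, and that variation may be technical.

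The IL-1 family acts through receptors that carry an intracellular TIR domain and recruit Myd88, whereas most other interleukins signal through paired cytokine receptor chains, JAK kinases and STAT factors. IL-17 cytokines use a separate receptor family that signals through the adaptor Traf3ip2 (Act1). Several families have built-in brakes, such as receptor antagonists, binding proteins and decoy receptors that bind a ligand without signalling. In tumour stroma, fibroblasts are known both to release interleukins and to answer those released by macrophages, lymphocytes and tumour cells.

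Total counts were 15817969 and 23763830 in the irradiated libraries and 17569515 and 13011489 in the unirradiated libraries. One count was worth 0.0601 and 0.0404 CPM (counts scaled to library size by TMM) in irradiated A and B, and 0.0597 and 0.0809 CPM in unirradiated A and B. The fibroblast label was checked against marker genes. The 12 fibroblast markers were all detected, and their summed level was 1833 to 1842 CPM in irradiated libraries against 542 to 577 CPM in unirradiated libraries. The 12 epithelial markers were detected as well, at a summed 8616 to 8951 CPM in irradiated libraries against 9430 to 9445 CPM in unirradiated libraries. Per kilobase of gene length, the epithelial keratin Krt8 had 1277 to 1343 CPM per kilobase in irradiated libraries against 1288 to 1304 in unirradiated libraries. The fibrillar collagen gene Col1a1 had 93.4 to 94.2 CPM per kilobase in irradiated libraries against 27.5 to 28.6 in unirradiated libraries. The libraries therefore held much epithelial RNA beside that of fibroblasts. In such bulk RNA, fewer cells of a type and less RNA per cell cannot be told apart, and no value below is assigned to a cell type.

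Among the 46 interleukin and receptor genes with enough counts to test, 20 were higher in irradiated libraries and 11 were lower. The background was high: of the 15961 genes tested, 33.9% were higher, 32.5% lower and 66.4% changed in either direction. The 31 called members are 67.4% of those tested, which is near that background. The median log2 fold change (irradiated over unirradiated) was 0.31 over the tested members and -0.004 over all tested genes. Among the 46 tested members, 14 were called at least 2-fold higher and 5 at least 2-fold lower. Over all 15961 tested genes these counts were 1721 and 1620. The libraries of the groups did not overlap in 35 tested members, 23 of them with irradiated libraries above, beside 82.5% of all tested genes. Ligands and soluble antagonists were 8 higher and 2 lower of 18 tested, and their median was 0.64 on the log2 scale. Receptor chains were 12 higher and 9 lower of 28 tested, with a median of 0.21. Summed over all members, the level was 641 and 639 CPM in irradiated libraries against 560 and 579 CPM in unirradiated libraries. Adjusted p-values below come from the quasi-likelihood test of edgeR, adjusted over the 15961 tested genes by the Benjamini-Hochberg method.

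**Figure D1:**
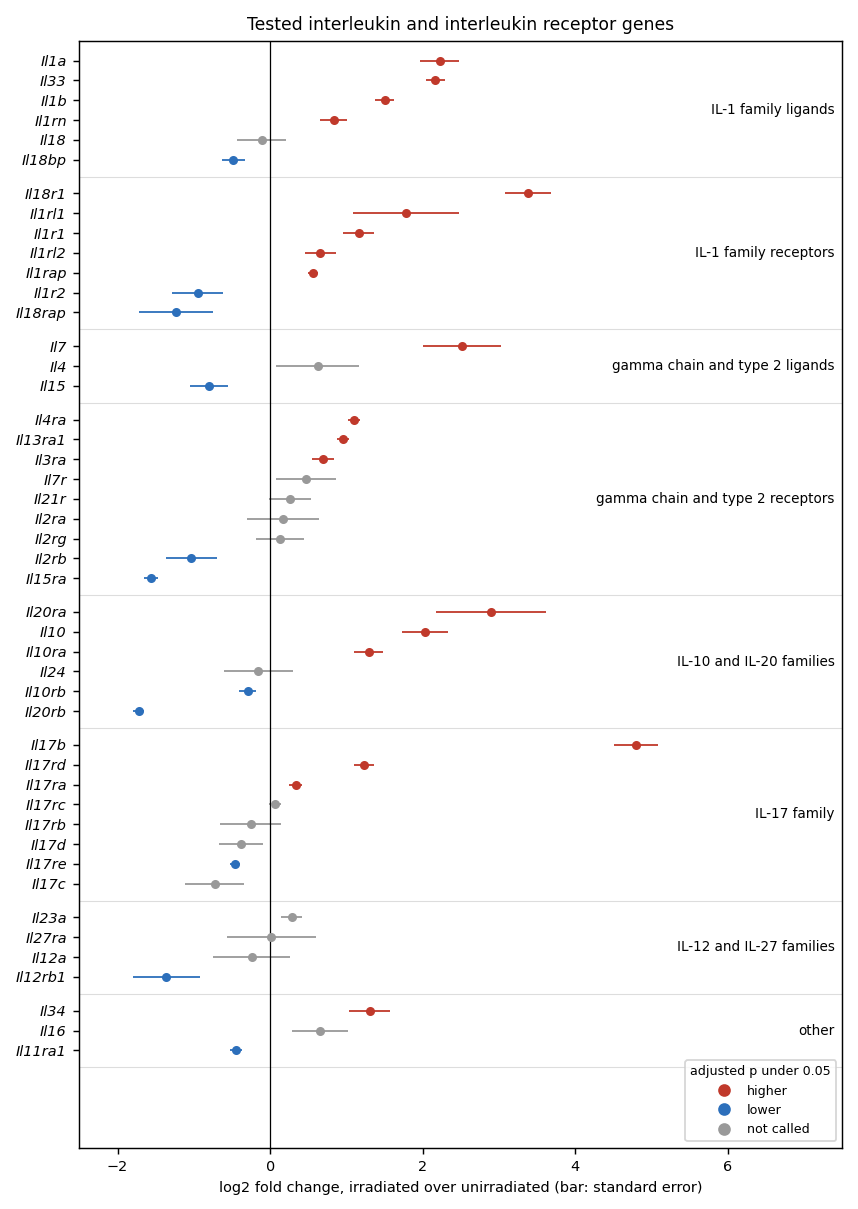
Log2 fold changes of the 46 tested members, irradiated over unirradiated, with bars for the standard error, grouped by family. Red points passed the test as higher (20 genes), blue points as lower (11 genes), and grey points did not pass. Il17b at 4.80 lies farthest to the right and Il20rb at -1.72 farthest to the left.

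The IL-1 family ligands Il1a, Il1b and Il33 rose by a log2 fold change of 1.501 to 2.22, and their natural antagonist Il1rn rose as well. Il33, an alarmin released by damaged barrier and stromal cells, had 29.6 and 29.9 CPM in irradiated libraries, against 6.20 and 7.20 CPM in unirradiated libraries. Both irradiated libraries lay above both unirradiated ones, a log2 fold change of 2.17 (SE 0.127, edgeR adjusted p = 1.28e-23). Il1a, an IL-1 receptor agonist that is active without cleavage, had 7.34 and 7.71 CPM in irradiated libraries, against 1.49 and 1.78 CPM in unirradiated libraries. Its log2 fold change was 2.22 (SE 0.253, edgeR adjusted p = 1.23e-11), with no overlap of the groups. Il1b, the agonist that needs proteolytic processing, had 26.3 and 24.9 CPM in irradiated libraries, against 8.05 and 10.3 CPM in unirradiated libraries. The groups stood apart here too, with a log2 fold change of 1.501 (SE 0.125, edgeR adjusted p = 8.66e-17). Il1rn, which occupies the IL-1 receptor without activating it, had 11.1 and 9.20 CPM in irradiated libraries, against 5.25 and 6.07 CPM in unirradiated libraries. Its rise was smaller, a log2 fold change of 0.84 (SE 0.176, edgeR adjusted p = 3.38e-05). The per-kilobase level of Il1rn over the sum of Il1a and Il1b was 0.115 and 0.0980 in irradiated libraries against 0.191 and 0.174 in unirradiated libraries. The antagonist was thus lower relative to the agonists in both irradiated libraries, and this ratio was not tested.

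The IL-18 arm of the ligands moved differently. Il18 had 2.04 and 1.98 CPM in irradiated libraries, against 2.62 and 1.54 CPM in unirradiated libraries, the groups overlapped, and the log2 fold change of -0.11 did not pass the test (SE 0.322, edgeR adjusted p = 0.779). Without unirradiated A the Il18 value was 0.38, in the other direction, and did not pass either. Il18bp, a secreted protein that binds and blocks IL-18, had 8.54 and 8.88 CPM in irradiated libraries, against 12.8 and 11.4 CPM in unirradiated libraries. Il18bp was lower, with a log2 fold change of -0.48 (SE 0.146, edgeR adjusted p = 0.00308). Without unirradiated library A the value was -0.38 and missed the threshold (edgeR adjusted p = 0.0650).

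Il1a and Il1b are neighbours on the minus strand of chromosome 2, at 129299610 to 129309972 and 129364570 to 129371139 in the files' mm10 coordinates. Their promoter windows are shown because the 2 genes lie side by side and rose together. Sequences are RefSeq's on GRCm38.p6, 300 bases each from 250 before to 50 after the start site, printed 5′ to 3′ on the gene's strand, with capitals marking an AP-1 consensus (TGANTCA).
Il1a promoter, chr2:129309923-129310222, minus strand: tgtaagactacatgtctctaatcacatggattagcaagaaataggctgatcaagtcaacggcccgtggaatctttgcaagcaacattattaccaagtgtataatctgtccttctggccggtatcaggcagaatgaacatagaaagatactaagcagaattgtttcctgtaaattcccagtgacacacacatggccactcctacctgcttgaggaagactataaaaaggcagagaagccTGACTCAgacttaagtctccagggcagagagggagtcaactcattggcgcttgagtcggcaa
Il1b promoter, chr2:129371090-129371389, minus strand: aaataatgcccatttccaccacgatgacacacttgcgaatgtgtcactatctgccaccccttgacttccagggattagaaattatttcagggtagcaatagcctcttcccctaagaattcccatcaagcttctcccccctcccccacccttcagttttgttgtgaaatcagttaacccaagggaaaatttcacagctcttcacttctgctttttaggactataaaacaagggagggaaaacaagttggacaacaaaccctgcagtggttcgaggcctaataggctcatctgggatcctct
The Il1a window held 1 AP-1 match, starting 12 bases before the start site, and the Il1b window held none. The windows were searched on both strands for AP-1, for the STAT consensus TTCNNNGAA and for the NF-kB consensus, and no printed matches overlap one another. AP-1 matches stood in 7.81% of all 32851 RefSeq mouse promoters, in 3 of 21 windows of higher members, in 1 of 9 windows of lower members and in 2 of 16 windows of tested members not called. STAT matches stood in 8.30% of all promoters, in 1 of 21 windows of higher members, in 1 of 9 of lower members and in 3 of 16 of those not called. NF-kB matches stood in 8.46% of all promoters, in 2 of 21 windows of higher members, in 0 of 9 of lower members and in 2 of 16 of those not called. Windows were at hand for 33 of the 46 tested members.

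All 7 tested IL-1 family receptor genes passed the test, 5 as higher and 2 as lower, beside 66.4% of all tested genes. Il18r1, the ligand-binding chain of the IL-18 receptor, changed most. It had 7.52 and 8.19 CPM in irradiated libraries, against 0.716 and 0.809 CPM in unirradiated libraries. The groups were far apart, with a log2 fold change of 3.38 (SE 0.301, edgeR adjusted p = 1.57e-15). Its partner Il18rap, the chain needed for signalling, had 9 and 12 counts in irradiated libraries against 18 and 17 counts in unirradiated libraries. Il18rap was lower, with a log2 fold change of -1.23 (SE 0.489, edgeR adjusted p = 0.0232). That call was lost when any 1 of the 4 libraries was left out (-1.07 to -1.43, edgeR adjusted p 0.0531 to 0.153) and with DESeq2 (adjusted p = 0.136). Per kilobase, Il18r1 over Il18rap was 19.5 and 23.7 in irradiated libraries against 0.935 and 0.825 in unirradiated libraries.

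Il1r1, the signalling IL-1 receptor, had 7.998 and 8.39 CPM in irradiated libraries, against 3.70 and 3.64 CPM in unirradiated libraries. The groups did not overlap, and the log2 fold change was 1.16 (SE 0.201, edgeR adjusted p = 9.31e-07). Il1r2, the decoy that captures IL-1 without signalling, had 1.14 and 1.57 CPM in irradiated libraries, against 3.28 and 1.94 CPM in unirradiated libraries. Here the irradiated libraries lay below, with a log2 fold change of -0.95 (SE 0.332, edgeR adjusted p = 0.0102). The Il1r2 call was lost without irradiated A (-0.77, edgeR adjusted p = 0.0820), without unirradiated A (-0.47, edgeR adjusted p = 0.399) and with DESeq2 (adjusted p = 0.100). The per-kilobase level of Il1r1 over Il1r2 was 2.10 and 1.60 in irradiated libraries against 0.338 and 0.562 in unirradiated libraries.

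Il1rap, the accessory chain shared by the receptors for IL-1, IL-33 and IL-36, had 81.6 and 72.1 CPM in irradiated libraries, against 52.7 and 50.8 CPM in unirradiated libraries. The groups did not overlap, and the log2 fold change was 0.56 (SE 0.0682, edgeR adjusted p = 1.03e-10). Il1rl2, the IL-36 receptor, had 6.68 and 6.74 CPM in irradiated libraries, against 3.88 and 4.77 CPM in unirradiated libraries. Il1rl2 was higher by a log2 fold change of 0.65 (SE 0.204, edgeR adjusted p = 0.00406). Its call was lost with DESeq2 (adjusted p = 0.0533), with a trend on gene length removed (edgeR adjusted p = 0.0696) and without unirradiated A (0.49, edgeR adjusted p = 0.0820). Il1rl1, the IL-33 receptor ST2, was near the limit of detection with 13 and 17 counts in irradiated libraries against 2 and 4 counts in unirradiated libraries. Its log2 fold change of 1.78 (SE 0.697, edgeR adjusted p = 0.0216) ranged from 1.15 without unirradiated A to 2.54 without unirradiated B. The Il1rl1 call was lost without unirradiated A (edgeR adjusted p = 0.293), without irradiated A or B (0.0628 and 0.0594), with the length trend removed (0.0520) and with DESeq2 (0.146). The brain-enriched relatives Il1rapl1 and Il1rapl2 had 1 and 0 counts in all 4 libraries.

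Of the 7 tested receptor genes, 6 sit in 1 block of chromosome 1, from 40074079 to 40551705, all on the plus strand. From end to end the log2 fold changes were -0.95 for Il1r2, 1.16 for Il1r1, 0.65 for Il1rl2, 1.78 for Il1rl1, 3.38 for Il18r1 and -1.23 for Il18rap. The 4 inner genes were thus higher and the 2 outer genes lower, but in this block only the calls of Il1r1 and Il18r1 held in every alternative. Il18r1 has 3 RefSeq start sites, and the farthest downstream is shown because its window alone holds matches, 2 STAT consensus sites marked in capitals.
Il18r1 promoter, farthest downstream start, chr1:40465756-40466055, plus strand: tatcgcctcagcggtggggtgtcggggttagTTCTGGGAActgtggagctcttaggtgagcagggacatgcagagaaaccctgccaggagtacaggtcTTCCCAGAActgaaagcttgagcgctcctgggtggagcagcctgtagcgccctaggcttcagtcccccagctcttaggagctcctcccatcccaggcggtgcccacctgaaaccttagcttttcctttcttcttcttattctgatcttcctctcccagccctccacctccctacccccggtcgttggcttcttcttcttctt
These matches start 219 and 152 bases before that start site. The count tables do not say which start was used.

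In the IL-10 and IL-20 families the ligand Il10 and the receptor chains Il10ra and Il20ra were higher, whereas Il20rb and Il10rb were lower. Il10, the anti-inflammatory cytokine of macrophages and lymphocytes, had 4.51 and 5.24 CPM in irradiated libraries, against 1.25 and 1.13 CPM in unirradiated libraries. The irradiated libraries lay above, by a log2 fold change of 2.03 (SE 0.302, edgeR adjusted p = 2.58e-08). Il10ra, the ligand-binding chain found mainly on leukocytes, had 8.96 and 10.9 CPM in irradiated libraries, against 4.53 and 3.56 CPM in unirradiated libraries. That is a log2 fold change of 1.29 (SE 0.190, edgeR adjusted p = 2.18e-08), and neither gene's groups overlapped. Il10rb, the chain shared with the IL-22 and interferon lambda receptors, had 15.2 and 18.4 CPM in irradiated libraries, against 19.8 and 22.4 CPM in unirradiated libraries. Its log2 fold change of -0.30 (edgeR adjusted p = 0.0175) was not held without irradiated A (-0.18, edgeR adjusted p = 0.250) or unirradiated B (-0.21, edgeR adjusted p = 0.161), nor with DESeq2 (adjusted p = 0.0920) or with no filter on low counts (edgeR adjusted p = 0.114).

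Il20rb, the chain that pairs with Il20ra or Il22ra1 to bind IL-19, IL-20 and IL-24, showed the strongest fall of any tested member. It had 30.2 and 27.3 CPM in irradiated libraries, against 92.1 and 96.6 CPM in unirradiated libraries. The log2 fold change was -1.72 (SE 0.0708, edgeR adjusted p = 1.54e-31), and it stayed between -1.84 and -1.63 over all 12 alternatives. Il20ra went the other way at a very low level, with 18 and 26 counts in irradiated libraries against 4 and 0 counts in unirradiated libraries. The ratio of its scaled counts was 7.74, with a 95% exact interval of 2.82 to 29.6 for counting error alone, and its edgeR adjusted p was 0.000381. The fitted log2 fold change of Il20ra was 2.89, and it was 7.26 without unirradiated A, where the remaining unirradiated library holds 0 counts and the value depends on the prior count, and 2.13 without unirradiated B. Of the ligands of these chains, Il24 had 0.842 and 0.928 CPM in irradiated libraries, against 1.19 and 0.728 CPM in unirradiated libraries and did not pass the test (log2 fold change -0.15, edgeR adjusted p = 0.777), and it was 0.29 without unirradiated A. Il19 was too low to test, with 0 and 2 counts in irradiated libraries against 11 and 6 in unirradiated libraries. Il24, Il20, Il19 and Il10 form 1 block on chromosome 1, 130882074 to 131024974. The Il20rb window is shown as that of the member with the strongest fall, and it holds none of the 3 motifs.
Il20rb promoter, chr9:100486424-100486723, minus strand: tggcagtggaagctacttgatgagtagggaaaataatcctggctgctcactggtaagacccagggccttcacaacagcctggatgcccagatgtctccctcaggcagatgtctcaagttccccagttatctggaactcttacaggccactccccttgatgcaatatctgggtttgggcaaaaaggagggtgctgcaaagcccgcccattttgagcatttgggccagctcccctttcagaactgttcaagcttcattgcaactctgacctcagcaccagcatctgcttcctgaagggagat

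Among cytokines of the common gamma chain and type 2 group, the chains of the type II IL-4 and IL-13 receptor rose together, whereas Il15, Il15ra and Il2rb fell. Il4ra, which binds IL-4 and is shared by both IL-4 receptor types, had 65.1 and 59.8 CPM in irradiated libraries, against 29.5 and 28.5 CPM in unirradiated libraries. Both irradiated libraries lay above both unirradiated ones, by a log2 fold change of 1.10 (SE 0.0779, edgeR adjusted p = 9.17e-20). Il13ra1, its partner in cells that lack the common gamma chain, had 65.9 and 64.7 CPM in irradiated libraries, against 30.7 and 37.1 CPM in unirradiated libraries. The groups did not overlap, and the log2 fold change was 0.96 (SE 0.0767, edgeR adjusted p = 1.91e-17). The common gamma chain gene Il2rg had 2.83 and 1.86 CPM in irradiated libraries, against 2.21 and 1.86 CPM in unirradiated libraries. These values overlapped, and the log2 fold change of 0.13 did not pass the test (SE 0.318, edgeR adjusted p = 0.738), turning to -0.14 without irradiated A. Per kilobase, Il4ra over Il2rg was 9.16 and 12.8 in irradiated libraries against 5.31 and 6.09 in unirradiated libraries. Exons of Gm20489 on the same strand cover 30.5% of the Il2rg exon bases. The size of this ratio therefore depends on how shared reads were counted, which is not known here. Of the ligands, Il4 had 15 and 18 counts in irradiated libraries against 10 and 5 in unirradiated libraries and did not pass (log2 fold change 0.62, edgeR adjusted p = 0.315), and Il13 had 3 counts in irradiated and 2 in unirradiated libraries.

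Il15ra, the chain that captures IL-15 and presents it to neighbouring lymphocytes, had 16.4 and 14.6 CPM in irradiated libraries, against 43.7 and 47.4 CPM in unirradiated libraries. Both irradiated libraries lay well below both unirradiated ones, with a log2 fold change of -1.56 (SE 0.0935, edgeR adjusted p = 3.14e-23). Il15 itself had 3.07 and 2.18 CPM in irradiated libraries, against 4.53 and 4.29 CPM in unirradiated libraries. It was lower by a log2 fold change of -0.80 (SE 0.254, edgeR adjusted p = 0.00472), and the call was lost without irradiated B (-0.52, edgeR adjusted p = 0.177) and with DESeq2 (adjusted p = 0.0667). Il2rb, the signalling chain that IL-2 and IL-15 share, had 1.20 and 1.29 CPM in irradiated libraries, against 2.39 and 2.83 CPM in unirradiated libraries. The irradiated values were the lower ones (log2 fold change -1.03, SE 0.336, edgeR adjusted p = 0.00573), and DESeq2 gave an adjusted p of 0.0550. Il2ra, the high-affinity IL-2 receptor chain that neighbours Il15ra on chromosome 2, had 0.902 and 1.01 CPM in irradiated libraries, against 1.19 and 0.404 CPM in unirradiated libraries and overlapping groups (log2 fold change 0.17, edgeR adjusted p = 0.765). The Il2ra value was 1.24 without unirradiated A and -0.30 without unirradiated B, so it has no settled direction. The second of the Il15ra start sites in RefSeq is shown because its window holds an AP-1 consensus, in capitals, 30 bases before the start, whereas that of the first holds none of the 3 motifs.
Il15ra promoter, second start, chr2:11705462-11705761, plus strand: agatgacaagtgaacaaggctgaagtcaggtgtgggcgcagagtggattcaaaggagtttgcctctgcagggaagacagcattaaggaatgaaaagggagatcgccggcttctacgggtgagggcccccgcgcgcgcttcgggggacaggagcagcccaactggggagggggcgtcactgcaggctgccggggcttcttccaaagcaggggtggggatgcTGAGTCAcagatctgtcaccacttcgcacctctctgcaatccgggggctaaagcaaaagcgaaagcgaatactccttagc

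Il7, the stromal growth factor of lymphocytes, had 23 and 60 counts in irradiated libraries against 7 and 3 in unirradiated libraries. At these counts its level was 1.38 and 2.42 CPM in irradiated libraries against 0.418 and 0.243 CPM in unirradiated libraries. Il7 was higher, with a log2 fold change of 2.52 (SE 0.512, edgeR adjusted p = 1.91e-05). Its receptor chain Il7r had 1.20 and 1.90 CPM in irradiated libraries, against 1.31 and 0.971 CPM in unirradiated libraries and did not pass (log2 fold change 0.47, edgeR adjusted p = 0.293). Il3ra, the ligand-binding chain for the haematopoietic cytokine IL-3, had 11.8 and 15.4 CPM in irradiated libraries, against 8.59 and 8.58 CPM in unirradiated libraries. The groups stood apart, with a log2 fold change of 0.69 (SE 0.148, edgeR adjusted p = 4.30e-05). Il21r had 3.67 and 2.82 CPM in irradiated libraries, against 2.27 and 3.16 CPM in unirradiated libraries with overlapping groups (log2 fold change 0.26, edgeR adjusted p = 0.415).

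T and NK cell markers were low and mostly lower in irradiated libraries, as were Il15, Il15ra and Il2rb. Of 12 such markers 7 could be tested, and 5 were lower and 0 higher in irradiated libraries. Their sum was 5.25 to 5.29 CPM in irradiated libraries against 12.8 CPM in each unirradiated library. Il15ra alone lay above that sum, at 43.7 and 47.4 CPM in unirradiated libraries. Other receptor genes of that group did not pass the test: Il2rg (log2 fold change 0.13), Il7r (0.47), Il2ra (0.17) and Il21r (0.26). The NK markers Klrb1c and Ncr1 had 0 to 3 counts in every library. Macrophage and monocyte markers moved with Il10 and Il10ra: 10 of 12 were higher and 1 lower, with a sum of 754 to 763 CPM in irradiated libraries against 384 to 388 CPM in unirradiated libraries. Other lists rose as well: fibroblast markers were higher for 10 of 12, and endothelial markers for 7 of 8. The endothelial sum was 150 to 162 CPM in irradiated libraries against 60.6 to 64.9 CPM in unirradiated libraries. Keratinocyte markers were 1 higher and 4 lower of 6 tested, and Il20rb was lower too. The keratinocyte sum was 16.3 to 19.9 CPM in irradiated libraries against 60.9 to 63.4 CPM in unirradiated libraries. Mast cell and basophil markers were 3 higher and 1 lower of 4 tested, and Il33 and Il1rl1 were higher too. The sum of these markers, most of it Kit, was 320.5 to 332.5 CPM in irradiated libraries against 172 to 174 CPM in unirradiated libraries. The mast cell protease gene Mcpt4 had 23 and 35 counts in irradiated libraries against 0 in each unirradiated library, while Fcer1a and Ms4a2 had 0 in all 4. Innate lymphoid cell markers, Il7r among them, were 1 higher and 3 lower of 7 tested. Their sum was 304.5 to 316.8 CPM in irradiated libraries against 614.2 to 619.9 CPM in unirradiated libraries. Neutrophil markers were 1 higher and 6 lower of 8 tested. Their sum, most of it Ltf, was 2141 to 2144 CPM in irradiated libraries against 371.5 to 377.3 CPM in unirradiated libraries. Il1r2 was lower, as were those 6 markers, while the sum was higher. In irradiated A and B, S100a9 had 14.9 and 2.18 CPM and S100a8 had 21.8 and 17.9 CPM. Il1r2 had 1.14 and 1.57 CPM there, from only 19 and 39 counts. B and plasma cell markers were 2 higher and 5 lower of 7 tested, and dendritic cell markers 2 higher and 1 lower of 3. Pericyte and smooth muscle markers were 5 higher and 0 lower of 8. Adipocyte markers were 1 higher and 1 lower of 3, and all-leukocyte markers 3 higher and 1 lower of 5. Called members were named beside lists with more genes in their direction, and lists of other cell types went the same way. Members that were not called, such as Il7r, were named without regard to direction. Over all 15961 tested genes, 33.9% were higher and 32.5% lower. The part of these cell types in the interleukin results was not tested.

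In the IL-12 and IL-27 families 1 of 4 tested genes passed. Il12rb1, the chain common to the IL-12 and IL-23 receptors, had 0.481 and 0.767 CPM in irradiated libraries, against 1.31 and 2.18 CPM in unirradiated libraries. It was lower, with a log2 fold change of -1.36 (SE 0.436, edgeR adjusted p = 0.00514). The call was lost without irradiated A (-1.11, edgeR adjusted p = 0.0529) and without unirradiated B (-0.999, edgeR adjusted p = 0.109). Il23a, the subunit that sets IL-23 apart from IL-12, had 12.5 and 12.4 CPM in irradiated libraries, against 10.7 and 9.71 CPM in unirradiated libraries. The groups did not overlap, yet the log2 fold change of 0.28 missed the threshold (SE 0.140, edgeR adjusted p = 0.0726). Il23a passed with no filter on low counts (edgeR adjusted p = 0.0470) and with a length trend removed (edgeR adjusted p = 0.00585). Il12a (log2 fold change -0.24, edgeR adjusted p = 0.682) and the IL-27 receptor Il27ra (0.02, edgeR adjusted p = 0.983) had overlapping groups. Leaving out 1 library moved Il12a between -0.83 (without unirradiated A) and 0.43 (without unirradiated B), with 0.06 without irradiated A. It moved Il27ra between -0.37 (without irradiated B) and 0.77 (without unirradiated A), with -0.36 without unirradiated B.

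Il34, which shares the receptor Csf1r with the macrophage growth factor Csf1, had 4.75 and 5.04 CPM in irradiated libraries, against 1.79 and 2.26 CPM in unirradiated libraries. Its groups were apart, with a log2 fold change of 1.30 (SE 0.266, edgeR adjusted p = 2.06e-05). Il16, a chemoattractant that binds CD4, had 1.92 and 2.06 CPM in irradiated libraries, against 1.61 and 0.809 CPM in unirradiated libraries. The log2 fold change of 0.66 did not pass (edgeR adjusted p = 0.109), but without unirradiated A it was 1.30 and did (edgeR adjusted p = 0.0363). Exons of Stard5 on the other strand cover 15.3% of the Il16 exon bases, and the libraries do not mark strand. Il11ra1, the IL-11 receptor chain, had 30.5 and 33.1 CPM in irradiated libraries, against 43.0 and 44.1 CPM in unirradiated libraries. That was a small fall, with a log2 fold change of -0.44 (edgeR adjusted p = 2.37e-06). Its near-identical copy Il11ra2 had 1 count in all over 3 identifiers, so how the authors' counting shared reads among the copies is uncertain.

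The IL-17 family held the largest change of any member. Il17b, a ligand of Il17rb, lies on chromosome 18 at 61687935 to 61692537. It had 13.2 and 13.8 CPM in irradiated libraries, against 0.418 and 0.566 CPM in unirradiated libraries. In counts this was 220 and 341 in irradiated libraries against 7 and 7 in unirradiated libraries. The log2 fold change was 4.80 (SE 0.288, edgeR adjusted p = 3.83e-23), and the ratio of scaled counts was 28.2 with a 95% exact interval of 16.7 to 51.9 for counting error alone. Over the 12 alternatives it stayed between 4.56 and 5.31. Its receptor Il17rb had 1.08 and 1.29 CPM in irradiated libraries, against 1.85 and 0.890 CPM in unirradiated libraries. These groups overlapped, and the log2 fold change of -0.25 did not pass the test (edgeR adjusted p = 0.583). The Il17rb value ranged from -0.61 without unirradiated B to 0.44 without unirradiated A, so its direction is not settled.

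Il17rd, a family member also known to dampen fibroblast growth factor signalling, had 23.0 and 21.8 CPM in irradiated libraries, against 7.87 and 11.6 CPM in unirradiated libraries. It was higher, with a log2 fold change of 1.23 (SE 0.131, edgeR adjusted p = 1.12e-12). Il17ra, the chain common to most IL-17 receptors, had 37.0 and 35.7 CPM in irradiated libraries, against 27.4 and 30.6 CPM in unirradiated libraries. Its log2 fold change of 0.33 (edgeR adjusted p = 0.000628) was 0.01 once a trend with gene length was removed (edgeR adjusted p = 0.946). The partner chain for IL-17C, Il17re, had 46.7 and 48.9 CPM in irradiated libraries, against 68.4 and 63.1 CPM in unirradiated libraries. That chain was lower by a log2 fold change of -0.46 (edgeR adjusted p = 3.03e-08). Il17rc, the partner for IL-17A and IL-17F and the neighbour of Il17re on chromosome 6, had 36.3 and 43.0 CPM in irradiated libraries, against 37.2 and 39.7 CPM in unirradiated libraries and overlapping groups (log2 fold change 0.06, edgeR adjusted p = 0.511; -0.07 without irradiated B). The ligands Il17c (log2 fold change -0.73, edgeR adjusted p = 0.0943) and Il17d (-0.38, edgeR adjusted p = 0.234) did not pass. Il17a and Il17f, the classic T cell products, had 3 and 2 counts over both irradiated libraries against 5 and 6 over both unirradiated libraries.

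**Figure D2:**
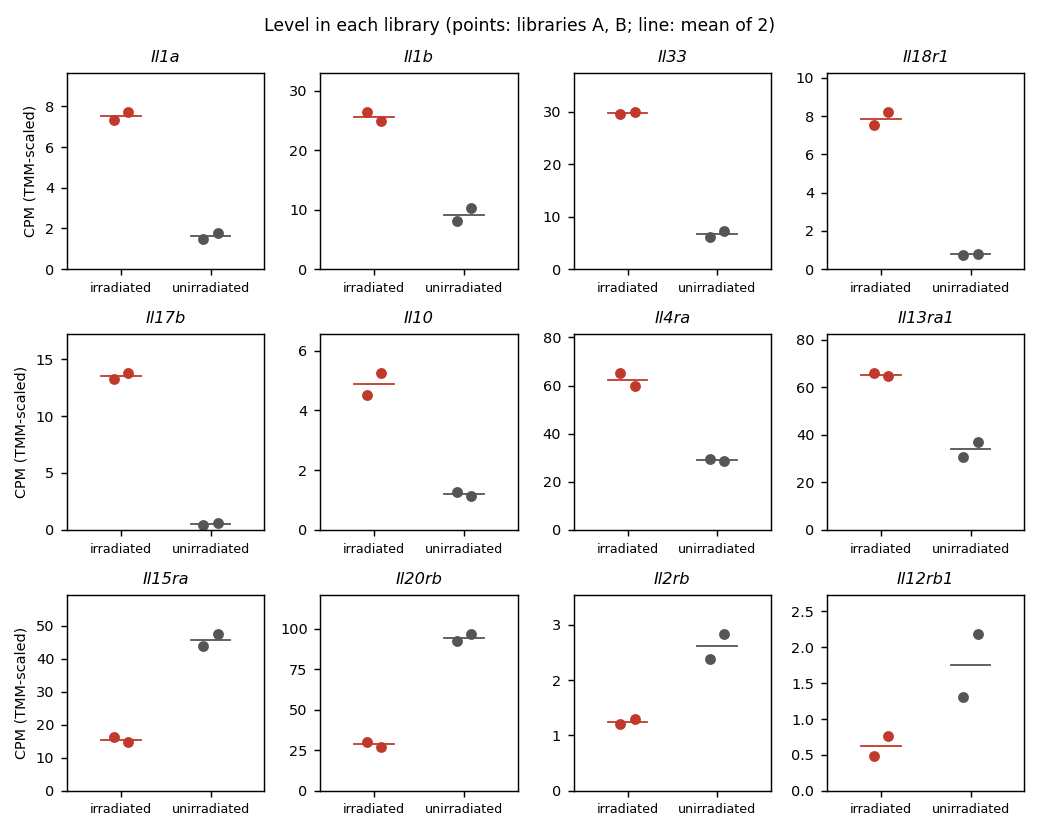
TMM-scaled CPM of 12 members in each library, with irradiated libraries (red) left of unirradiated libraries (grey) and a line at the mean of the 2 libraries; each axis starts at 0. The groups do not overlap in any of the 12 panels: Il1a, Il1b, Il33, Il18r1, Il17b, Il10, Il4ra and Il13ra1 lie higher in irradiated libraries, and Il15ra, Il20rb, Il2rb and Il12rb1 lower.

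The 34 members that could not be tested reached at most 14 counts in any library. Of these, 9 had 0 counts in all 4 libraries, among them the T helper 2 cytokines Il5 and Il9 and the T cell product Il21. A count of 0 in a library allows up to 3 counts, so such genes were not detectable at this depth. Another 14 had 1 to 9 counts in all, including Il2, Il13, Il17a, Il17f, Il25 and Il31. The remaining 11 had 10 counts or more. The ligand subunit Il12b had 16 counts over the irradiated libraries against 5 over the unirradiated ones, and Il27 had 18 against 8. The IL-36 antagonist Il1f5 had 8 against 13 counts, the IL-36 ligand Il1f9 had 9 against 7, and the soluble IL-22 binding protein Il22ra2 had 7 against 4. The receptors Il12rb2, Il23r and Il9r had 11 against 12, 9 against 3, and 3 against 7 counts, and the decoy Il13ra2 had 10 against 2. Il4i1, a secreted amino acid oxidase and no cytokine, had 1 count in irradiated libraries against 9 in unirradiated libraries. Il19 and Il4i1 were the 2 of the 11 whose 95% exact counting intervals for the ratio lay below 1, at 0.00927 to 0.349 and 0.00178 to 0.564. Exons of Tbc1d17 cover 83.9% of the Il4i1 exon bases and those of Serbp1 cover 40.0% of the Il12rb2 exon bases, both on the other strand.

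Per kilobase of deposited gene length, the order of members differed between the groups. In irradiated libraries Il17b led with 19.5 ± 0.540 CPM per kilobase (SD, n = 2), followed by Il13ra1 with 17.6 ± 0.227 and Il17rc with 14.8 ± 1.79. In unirradiated libraries Il17b ranked 29 with 0.711 ± 0.152 CPM per kilobase, and Il20rb led with 22.4 ± 0.756, followed by Il17rc with 14.4 ± 0.662 and Il17re with 11.2 ± 0.641. Il20rb ranked 9 in irradiated libraries with 6.84 ± 0.50 CPM per kilobase. The neighbours Il17rc and Il1b in irradiated libraries, at 14.8 ± 1.79 and 13.4 ± 0.536 CPM per kilobase, did not differ beyond their spread, nor did Il4ra and Il33, at 10.4 ± 0.633 and 10.3 ± 0.0612. The place of Il17b depends on the length used: the files give 692 bases, whereas exons of GENCODE release M21 cover 973. Spread over 973 bases, its irradiated mean of 13.5 CPM would place it below Il13ra1 at the deposited length of Il13ra1. Its lead therefore holds for the deposited length only.

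**Figure D3:**
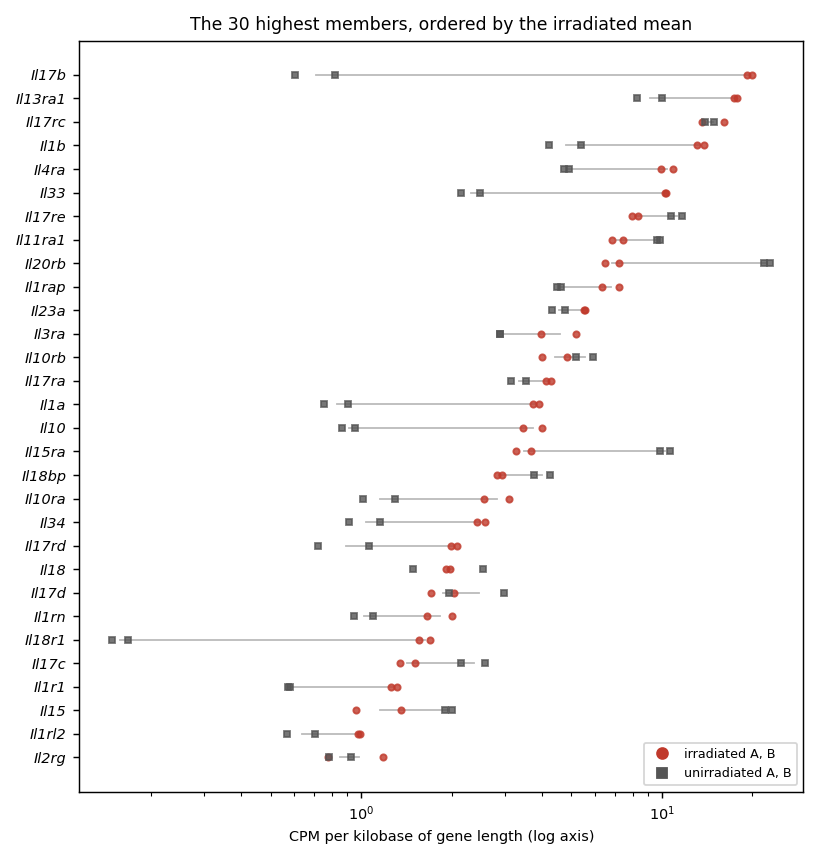
CPM per kilobase of gene length (log axis) in each library for the 30 members with the highest irradiated mean, in that order from top to bottom; red circles are irradiated libraries and grey squares unirradiated libraries. On the deposited lengths Il17b is at the top with 19.1 and 19.9 CPM per kilobase in irradiated libraries, far right of its unirradiated points. Il20rb and Il15ra show the opposite shift.

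Genes that act with or downstream of these interleukins were counted in 7 lists, which share some genes. Over all lists 96 genes were tested, of which 47 were higher and 24 lower, and the median was 0.20 on the log2 scale. That is 74.0% called, beside 66.4% of all tested genes, and the share called ranged from 33.3% to 100% over the 7 lists. Genes known to be induced by IL-1 were 15 higher and 2 lower of 17, and their median was 1.30 on the log2 scale. They included the hyaluronan synthase Has1, at 9.56 and 9.89 CPM in irradiated libraries against 0.477 and 0.566 CPM in unirradiated libraries, and Vcam1, which holds leukocytes to endothelium, at 28.3 and 29.4 CPM in irradiated libraries against 3.52 and 3.07 CPM in unirradiated libraries. Has1 had a log2 fold change of 4.22 (edgeR adjusted p = 4.88e-19) and Vcam1 one of 3.12 (edgeR adjusted p = 7.35e-28), and between them came the monocyte chemokines Ccl7 (3.80) and Ccl2 (3.30). The 2 lower genes were the NF-kB inhibitor Nfkbia (-0.20) and the chemokine Cxcl12 (-0.39).

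The genes that relay the IL-1 receptor signal moved little, with 5 higher and 4 lower of 15 and a median of 0.05 on the log2 scale. The kinase Irak1 (-0.66) and the inhibitory receptor Sigirr (-0.54) were lower, the kinase Map3k7 (0.49) and the inhibitor Tollip (0.42) higher, and the adaptor Myd88 did not pass (0.05, edgeR adjusted p = 0.517). Among inflammasome genes 2 of 9 were higher and 1 lower. The sensor Nlrp3 was higher (log2 fold change 1.41, edgeR adjusted p = 1.27e-10) and the adaptor Pycard lower (-1.74, edgeR adjusted p = 1.08e-19), and Casp4, an inflammatory caspase, was the other higher gene (0.52). Casp1, the protease that matures IL-1 beta and IL-18, had 36.8 and 37.4 CPM in irradiated libraries against 38.6 and 40.1 CPM in unirradiated libraries and did not pass (edgeR adjusted p = 0.376).

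Genes of IL-17 signalling and response were 11 higher and 4 lower of 16, and their median was 0.63 on the log2 scale. The chemokines Cxcl5 (3.36), Ccl20 (3.08) and Cxcl1 (1.80) and the matrix protease Mmp3 (2.16) were higher, and the receptor adaptor Traf3ip2 was lower (-0.51). The list's lower genes also held S100a9, at 14.9 and 2.18 CPM in irradiated A and B against 19.9 and 15.0 CPM in unirradiated libraries. Irradiated library B was low in some other neutrophil markers too. Ngp had 9.74 and 0.646 CPM in irradiated A and B against 10.9 and 14.6 CPM in unirradiated libraries. Camp, Mmp8, Retnlg and Cxcr2 were likewise lower in irradiated B than in irradiated A. S100a8 and Ltf showed no such split, with 21.8 and 17.9 CPM for S100a8 and 2087 and 2122 CPM for Ltf in irradiated A and B. The levels of Il1a, Il1b, Il33, Il10, Il17b and Il1r2 in irradiated A and B are given above, and a link to these markers was not tested.

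Genes known to answer IL-4 and IL-13 went both ways, with 6 higher and 4 lower of 12 and a median of 0.46 on the log2 scale. Arg1, an arginine-degrading enzyme of macrophages, had 52.3 and 52.4 CPM in irradiated libraries against 317 and 324 CPM in unirradiated libraries. Its log2 fold change was -2.61 (edgeR adjusted p = 1.22e-48), the lipoxygenase Alox15 was lower too (-1.76), and the macrophage mannose receptor Mrc1 was higher (1.78). Retnla, a secreted protein of macrophages answering IL-4, had 40 and 77 counts in irradiated libraries against 2 and 0 in unirradiated libraries. JAK kinases, STAT factors and their feedback inhibitors were 8 higher and 8 lower of 20, and their median was 0.02 on the log2 scale. Socs5 was higher (1.54), and Socs1 (-1.56), Stat2 (-1.16) and Jak3 (-0.79) were lower. Partner cytokines and receptors named outside the family were 6 higher and 2 lower of 14, with a median of 0.09. They included Tslp, a cytokine that uses Il7r (1.32), Csf1r, the receptor for Il34 (1.27), the receptor chain Csf2rb2 (1.18) and the growth factor Csf1 (0.54), all higher.

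**Figure D4:**
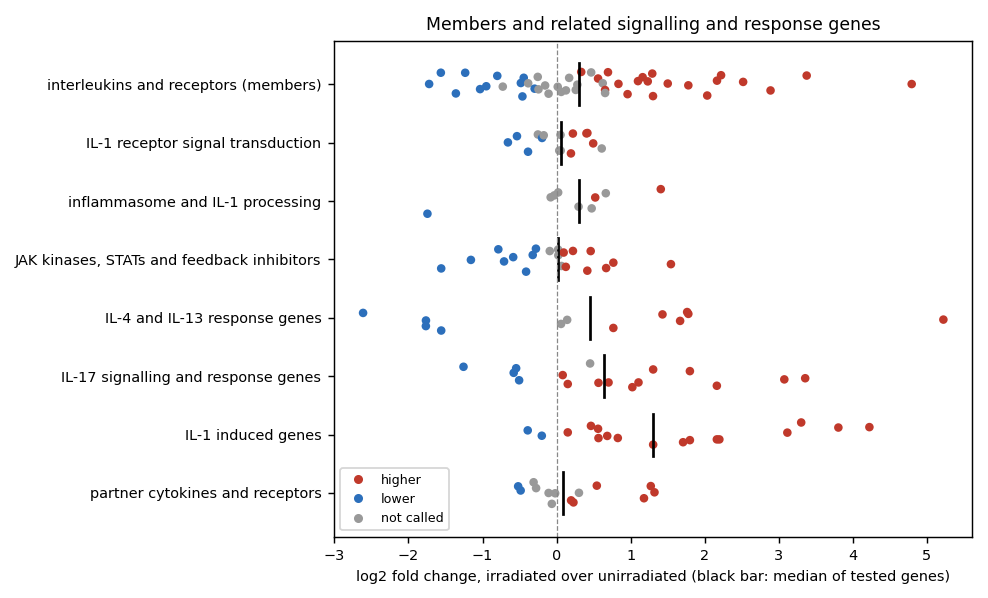
Log2 fold changes, irradiated over unirradiated, of tested members (top row) and of tested genes in 7 related lists, 1 point per gene, with a black bar at each median. Points are red where higher, blue where lower and grey where the gene did not pass the test; IL-1 induced genes have the highest median, 1.30, and the members' median is 0.31.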

How the data were processed

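Each deposited file holds 1 library: whole-number read counts per gene as the authors made them, with no normalization, beside a length in bases for each gene, per the file headers. The submitters' processing notes name STAR 2.5, HTSeq 0.6.1, DESeq2 and mm10, and the counting settings are not known here. Per the labels' protocols, digested tumours were treated with a PDGFRa antibody, and the library kit does not mark strand, so antisense and overlapping genes cannot be told apart. Counts of all genes were fitted with edgeR 4.0.16 in R 4.3.3 (filterByExpr, TMM, quasi-likelihood F-test, 2 residual degrees of freedom). P-values were adjusted by Benjamini-Hochberg over the 15961 genes tested, at a threshold of 0.05. A standard error is the size of the log2 fold change divided by the root of its F value. CPM are TMM-scaled, and levels per kilobase use the deposited length. Exact tests of 2 against 2 single values cannot go below p = 0.333 and were not used. Where a group held 20 counts or fewer, ratios carry 95% exact binomial intervals, which cover counting error only.

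The members, families, lists, tests and alternatives were chosen with earlier results of these data known. Every tested member is named. Full values are given for called members whose mean reached 1 CPM, except that Il10rb, Il11ra1, Il17ra and Il17re lack a standard error. From each related list the 4 called genes of largest change are named, or all where fewer passed. Nfkbia, Cxcl12, Traf3ip2, S100a9, Ngp and other neutrophil markers were named in addition, after their values were seen. The alternatives tried were RLE or upper-quartile scaling, DESeq2 1.42.0, no or a stricter count filter, a replicate block, a removed length trend, a test against 1.5-fold and leaving out each library. The functions were tested on simulated counts. All 80 identifiers occur in GENCODE M21, and 79 have identical coordinates there. The 2 libraries of a group differed by 2.14 (irradiated) and 2.11 (unirradiated) times the chi-square that counting alone gives. Each was kept as a replicate, but this excess does not show that A and B are independent samples. The common coefficient of variation between libraries beyond counting was 3.86%. All adjusted p-values and shares called rest on the spread between these libraries. No batch is labelled, so irradiation and a batch that matches it cannot be told apart.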

Additional observations from a re-analysis of the deposited data

How the results depend on the processing

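No called member changed direction under any of the 12 alternatives. Of the 31 called members, 17 higher and 4 lower passed in every alternative other than the test against 1.5-fold, and 10 were lost at least once. DESeq2 called 6 members lower, against 11 in edgeR, and 18 higher against 20. The test against 1.5-fold called 14 members higher and 2 lower, 3786 genes in all against 10593, and 26 related genes higher and 9 lower against 47 and 24. Leaving out 1 library gave 19 to 20 members higher and 8 to 9 lower. The letters A and B are not stated to pair the libraries. The correlation of their deviations was 0.01, which shows no pairing but cannot exclude one. With the letter as a replicate block 20 members were higher and 11 lower. Upper-quartile and RLE scaling changed no member's call. Removing a trend with gene length cost 3 calls and gained 1. With no filter on low counts, 71 members were tested, 21 higher and 11 lower. Leaving out 1 library ended the calls of Il10rb, Il12rb1, Il15, Il18bp, Il18rap, Il1r2, Il1rl1 and Il1rl2, moved the value of Il20ra, brought a call for Il16, and turned the direction of 8 members that were not called (Il12a, Il17rb, Il17rc, Il18, Il24, Il27ra, Il2ra and Il2rg). The members concerned range from few counts (Il1rl1) to many (Il10rb, Il17rc), and the causes were not tested.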
